A study of Mus musculus with 16 samples.

Results

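The genes described here are 36 genes of hypoxia and glycolysis, taken by name from a list that was drawn up with earlier results of these data known, of 54532 genes in the deposited tables. They are 15 glycolytic enzymes, 5 genes that move glucose or lactate or set the flux through the pathway, and 16 other genes known as targets of the hypoxia-inducible factors (HIF). The symbol Aldoa stands beside 2 gene identifiers, so 37 entries carry a member's name. The larger entry was used, and the other one held 12 to 22 counts per library.

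The series profiled mouse pancreatic tumours grown orthotopically, that is, in the pancreas, from KPC1199 cells, to ask how Ly6d affects pancreatic cancer. The labels list 16 samples: 8 of tumour tissue, not analysed here, and 8 of KPC1199 cells sorted from such tumours. The groups used here are sorted WT cells, sorted cells that overexpress Ly6d, and cells sorted as Ly6d-high or Ly6d-low, with 2 samples each. All groups share the KPC1199 line. The labels used here give no host strain, age, time, overexpression vector or sorting marker, and they do not say whether replicates came from separate mice, so p-values measure only the spread between these samples. The names of the WT count columns fit titles of sorted WT samples, but the same string also occurs in titles of WT tumour tissue. The overexpression columns are named as the titles of overexpression tumour tissue are, while sorted overexpression samples are titled differently. Whether the 4 count libraries came from sorted cells or from tissue is therefore not settled by the names, and WT and overexpression below mean the libraries so named.

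In cells with little oxygen, the prolyl hydroxylases that mark HIF alpha subunits for destruction slow down, and stabilised HIF binds short DNA motifs near its target genes. Some targets encode glycolytic enzymes, which break glucose down to pyruvate, and lactate dehydrogenase, which turns pyruvate into lactate. Others act on blood vessel growth, pH, mitophagy, protein folding or collagen, and the hydroxylases themselves are targets, which closes a feedback loop. Many glycolytic enzymes are also among the most abundant mRNAs of tumour cells whether or not oxygen is short.

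The promoter sequences below are those of the members that passed the test in either comparison and have an entry in the RefSeq promoter table of build GRCm38.p6. They are shown because a shared regulator is the usual reason to group these genes. Each runs 5′ to 3′ on the gene's strand from 250 bases before to 50 bases after a listed start, and the listed start nearest to the 5′ end of the gene model was taken. Capitals mark the HIF core motifs ACGTG and GCGTG, searched on both strands, so that CACGT and CACGC count as well. An overlapping pair within the palindrome CACGTG, which is also an E-box, counts as 2 matches.
Bnip3 (chr7:138909457-138909756, minus strand): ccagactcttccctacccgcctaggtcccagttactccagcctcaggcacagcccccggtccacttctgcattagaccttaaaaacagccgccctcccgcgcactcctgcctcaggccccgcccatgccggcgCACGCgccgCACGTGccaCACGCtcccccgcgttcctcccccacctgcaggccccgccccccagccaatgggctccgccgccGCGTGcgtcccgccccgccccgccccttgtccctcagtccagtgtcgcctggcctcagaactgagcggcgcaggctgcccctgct
Mxi1 (chr19:53310256-53310555, plus strand): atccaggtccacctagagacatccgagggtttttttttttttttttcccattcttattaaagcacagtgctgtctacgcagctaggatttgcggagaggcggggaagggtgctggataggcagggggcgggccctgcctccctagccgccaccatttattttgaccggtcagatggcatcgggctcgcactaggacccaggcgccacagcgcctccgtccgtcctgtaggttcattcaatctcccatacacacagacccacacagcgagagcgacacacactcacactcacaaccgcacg
Pfkl (chr10:78009758-78010057, minus strand): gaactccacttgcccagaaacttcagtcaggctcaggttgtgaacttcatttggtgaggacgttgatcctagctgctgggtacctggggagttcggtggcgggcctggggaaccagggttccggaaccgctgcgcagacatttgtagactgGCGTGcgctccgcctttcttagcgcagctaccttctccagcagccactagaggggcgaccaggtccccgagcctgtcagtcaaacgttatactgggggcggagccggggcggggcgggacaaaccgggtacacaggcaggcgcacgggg
Ldha (chr7:46845554-46845853, plus strand): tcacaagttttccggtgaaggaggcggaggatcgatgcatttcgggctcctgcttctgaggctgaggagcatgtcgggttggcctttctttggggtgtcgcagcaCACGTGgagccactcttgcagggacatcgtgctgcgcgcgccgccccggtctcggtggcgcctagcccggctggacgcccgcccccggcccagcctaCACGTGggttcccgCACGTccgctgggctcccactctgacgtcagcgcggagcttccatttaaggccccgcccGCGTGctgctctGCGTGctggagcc
Tpi1 (chr6:124814109-124814408, minus strand): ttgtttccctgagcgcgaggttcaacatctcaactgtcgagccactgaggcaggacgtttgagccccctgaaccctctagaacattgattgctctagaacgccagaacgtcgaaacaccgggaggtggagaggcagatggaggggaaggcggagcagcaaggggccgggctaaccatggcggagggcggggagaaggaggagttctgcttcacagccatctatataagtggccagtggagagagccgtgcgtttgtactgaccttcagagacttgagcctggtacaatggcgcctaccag
Car9 (chr4:43506776-43507075, plus strand): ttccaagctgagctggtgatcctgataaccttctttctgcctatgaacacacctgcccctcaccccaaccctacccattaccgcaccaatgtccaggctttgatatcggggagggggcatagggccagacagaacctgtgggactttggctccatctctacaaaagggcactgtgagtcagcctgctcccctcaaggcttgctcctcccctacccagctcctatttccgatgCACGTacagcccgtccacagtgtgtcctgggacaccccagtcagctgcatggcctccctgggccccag

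The mitophagy receptor gene Bnip3 held 5 matches and Ldha held 7, with CACGTG in both. Pfkl and Car9 held 1 each, and Mxi1 and Tpi1 held 0. The start taken for Ldha lies 4329 bases inside the gene model. Of 33 members with an entry, 26 had at least 1 match (78.8%), against 43.8% of 32851 windows of the same length. The members' windows had a median GC content of 64.7% and all windows 52.7%, and no comparison matched on GC was made. At least 1 match stood in 10 of 15 windows of glycolytic enzymes, 5 of 5 of the transport and flux genes, and 11 of 13 of the other HIF targets. A match is a run of letters, and no factor binding was measured. Bnip3l, Ndrg1 and Ero1l were not matched in the table.

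The targeted gene itself checks the labels. Ly6d stood at 1260 and 1066 CPM (counts scaled to equal library totals) in WT and at 3380 and 3423 CPM with overexpression, and at 1.56 and 0.352 TPM (the same idea, scaled by gene length first) in Ly6d-low and 697 and 504 TPM in Ly6d-high cells. The count libraries held 15449241 to 18290325 counts. The TPM of the other 4 libraries were turned back into 15063975 to 20509539 whole reads. WT replicate 2 stood apart in a ribosomal RNA model (CT010467.1, 9191 CPM against 478 CPM in WT replicate 1) and in a miRNA model of 57 bases (Gm23935, 8226 against 487 CPM). Levels of different genes in the count libraries are therefore compared as CPM per kilobase and not as TPM. Epithelial markers were abundant in all 8 libraries, with Epcam, Cdh1 and 4 keratins summing to 11881 to 13306 CPM and 38558 to 56566 TPM.

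All 36 members were expressed and tested in both comparisons. Per kilobase, the glycolytic enzymes were the most abundant group. In WT, Pkm (pyruvate kinase) stood at 390 and 395 CPM per kilobase, followed by Tpi1 at 320 and 304, Ldha at 303 and 303 and Aldoa at 303 and 301. Ldha and Aldoa did not differ beyond the spread of their WT libraries, and Tpi1 lay just above them. Of the other HIF targets, Vegfa (131 and 121), Ddit4 (130 and 110) and Egln3 (109 and 116 CPM per kilobase) were the highest, and neighbours in that order overlapped. Car9, Adm, Ankrd37 and Higd1a stood below 10 CPM per kilobase in both WT libraries. The 15 enzymes summed to 0.803% and 0.795% of all counts in WT and to 1.62% and 1.64% of TPM in Ly6d-low cells.

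With Ly6d overexpression, 6 of the 36 genes rose and 0 fell. By edgeR's quasi-likelihood test with a Benjamini-Hochberg adjusted p under 0.05 over all 15771 genes tested, 2.32% of genes rose and 1.84% fell. The genes that rose were Ero1l, Bnip3, Mxi1, Bnip3l and Ndrg1, all HIF targets outside glycolysis, and 1 glycolytic enzyme gene, Pfkl. By role, 5 of 16 other HIF targets, 1 of 15 glycolytic enzymes and 0 of 5 transport and flux genes were called. The median log2 fold change was 0.29 for the other HIF targets, 0.14 for the enzymes and 0.01 for the transport and flux genes, beside -0.0012 for all genes tested. No test was made between these lists, whose members were chosen with earlier results of these data known.

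Ero1l, an oxidase of the endoplasmic reticulum that drives disulfide bond formation, lies on chr14:45283087-45318771 (GRCm38, minus strand). It stood at 150 and 155 CPM in WT and at 236 and 233 CPM with overexpression. Both overexpression libraries lay well above both WT libraries, and the spread within each group was small beside the gap. The log2 fold change was 0.61 ± 0.07 (SE, n = 2 and 2), with an adjusted p of 0.000274 by edgeR.

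Both mitophagy receptors rose. Bnip3 (chr7:138890836-138909519, minus strand) was at 38.2 and 36.3 CPM in WT and 58.2 and 55.2 CPM with overexpression, a log2 fold change of 0.59 ± 0.10 (adjusted p = 0.00799, edgeR). Bnip3l (chr14:66985239-67008877, minus strand) was at 102 and 96.3 CPM in WT and 128 and 148 CPM with overexpression, a log2 fold change of 0.46 ± 0.09 (adjusted p = 0.0128, edgeR). Neither gene's groups overlapped, although the overexpression libraries of Bnip3l lay further apart than its WT libraries. A copy, Bnip3l-ps, had 8.11 to 11.2 CPM in the 4 libraries and may share reads with Bnip3l.

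Ndrg1, a stress-responsive gene often induced by low oxygen, and Mxi1, which encodes a partner of Max that opposes Myc, rose by similar amounts. Ndrg1 (chr15:66929318-66969640, minus strand) was at 348 and 344 CPM in WT and 465 and 484 CPM with overexpression, a log2 fold change of 0.44 ± 0.06 (adjusted p = 0.00218, edgeR). Mxi1 (chr19:53310506-53375810, plus strand) was at 56.4 and 54.0 CPM in WT and 77.6 and 81.4 CPM with overexpression, a log2 fold change of 0.51 ± 0.09 (adjusted p = 0.00951, edgeR). For both genes the overexpression libraries lay above the WT libraries without overlap.

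Pfkl, the liver-type subunit of phosphofructokinase, which catalyses the committed step of glycolysis, was the single enzyme gene called by edgeR with all libraries and the filter on low counts. DESeq2 on the same counts called Aldoa (adjusted p = 0.0135) and Tpi1 (adjusted p = 0.0469) higher as well, and the ranges over all 7 alternatives were 0.0135 to 0.366 and 0.0284 to 0.478. Pfkl lies on chr10:77986947-78010083 (minus strand) and stood at 210 and 223 CPM in WT and at 274 and 263 CPM with overexpression. Its log2 fold change of 0.29 ± 0.07 had an adjusted p of 0.0337 by edgeR. The call was lost without WT replicate 1 (adjusted p = 0.162) and without overexpression replicate 1 (adjusted p = 0.0608), and over all 7 alternatives the adjusted p of Pfkl ran from 0.00437 to 0.162. Its paralogs Pfkm and Pfkp, the muscle and platelet types, were not called, with log2 fold changes of 0.10 ± 0.11 and 0.15 ± 0.07. Pfkl gave 52.9% and 55.4% of the summed phosphofructokinase level per kilobase in WT and 59.4% and 55.0% with overexpression, so its share of the family overlapped between groups.

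**Figure D1:**
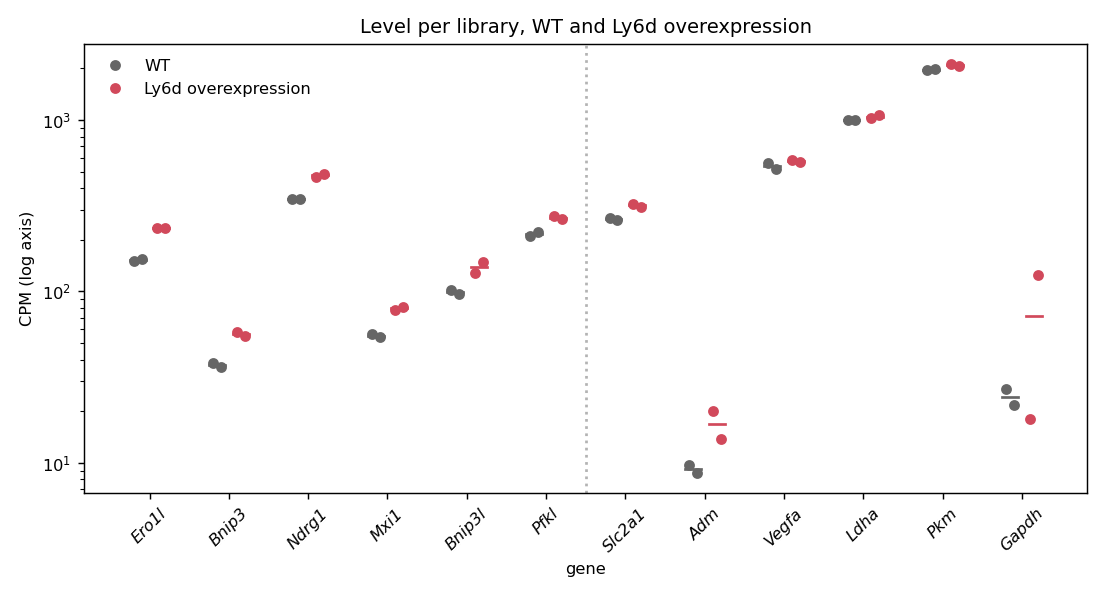
Level of 12 hypoxia and glycolysis genes in each library, in CPM on a log axis, with WT in grey and Ly6d overexpression in red. Points are single libraries and short lines are group means of 2 libraries; the 6 genes left of the dotted line passed the edgeR test. Ero1l stood at 150 and 155 CPM in WT and 236 and 233 CPM with overexpression, while Gapdh was high in only 1 overexpression library (125 CPM).

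The remaining glycolytic enzymes differed little. Pkm was at 1949 and 1976 CPM in WT and 2107 and 2076 CPM with overexpression, Ldha at 1003 and 1003 against 1027 and 1066 CPM, and Eno1 at 1067 and 1065 against 1065 and 1149 CPM. Their log2 fold changes were 0.07 ± 0.06, 0.04 ± 0.07 and 0.04 ± 0.07, and none passed the test. Aldoa, Tpi1, Pgam1, Pgk1, Pfkp, Gpi1 and Hk1 lay between 0.12 and 0.19 on the log2 scale without passing. Aldoc was at 51.6 and 54.4 CPM in WT and 53.4 and 53.2 CPM with overexpression, so its groups overlapped. Hk2, the hexokinase regarded as the inducible one, had a log2 fold change of -0.18 ± 0.07 (adjusted p = 0.222, edgeR). Its share of the summed hexokinase level per kilobase was 64.7% and 62.6% in WT and 61.1% and 57.5% with overexpression.

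Gapdh rested on 1 library. It had 485 and 334 counts in WT and 330 and 2254 counts with overexpression, so only overexpression replicate 2 was high. The log2 fold change of 1.55 ± 0.59 (adjusted p = 0.196, edgeR) turned to -0.45 without that library. Gapdh has many near-identical processed copies in the mouse genome, and its count is uncertain wherever reads were shared among them. In every library the listed level of Gapdh was below those of Aldoa, Tpi1, Pgk1, Pgam1, Eno1, Pkm and Ldha, on either scale per length.

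Of the transport and flux genes, Slc2a1, which encodes the widely expressed glucose importer, was at 267 and 261 CPM in WT and 325 and 309 CPM with overexpression. Its log2 fold change was 0.25 ± 0.06 and its adjusted p 0.0556 by edgeR. Pdk1, a kinase that inhibits pyruvate dehydrogenase, was at 76.6 and 81.8 CPM in WT and 99.7 and 98.4 CPM with overexpression. Its log2 fold change was 0.30 ± 0.08 (adjusted p = 0.0709, edgeR). Neither gene's groups overlapped, and neither passed the threshold by edgeR with the filter on low counts. DESeq2 on the same counts called Slc2a1 higher (adjusted p = 0.0211) but not Pdk1 (adjusted p = 0.135). Without the filter, edgeR called both higher (adjusted p = 0.0239 for Slc2a1 and 0.0373 for Pdk1). The lactate exporter gene Slc16a3 (0.01 ± 0.06) and the bifunctional regulators Pfkfb3 (-0.08 ± 0.11) and Pfkfb4 (-0.01 ± 0.11) had overlapping groups.

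Among the other HIF targets that did not pass, Adm, the gene of the vasodilator peptide adrenomedullin, had the largest log2 fold change, 0.86 ± 0.22 (adjusted p = 0.0547, edgeR). It was a low gene, at 9.72 and 8.74 CPM in WT and 20.2 and 13.7 CPM with overexpression. Ankrd37 was lower still, at 8.39 and 6.93 against 10.1 and 11.2 CPM. Egln1 and Egln3, the hydroxylases of HIF that HIF itself induces, had log2 fold changes of 0.31 ± 0.12 and 0.14 ± 0.07, and that of Egln1 ran from 0.11 without WT replicate 1 to 0.53 without WT replicate 2 (adjusted p = 0.917 and 0.0017, edgeR). Adm ran from 0.55 without overexpression replicate 1 to 1.10 without overexpression replicate 2 (adjusted p = 0.0868 and 0.000394), and Ddit4 from 0.15 without WT replicate 2 to 0.37 without WT replicate 1 (adjusted p = 0.602 and 0.00325). Ddit4, which restrains mTOR, Kdm3a, a histone demethylase, and P4ha1, a collagen prolyl hydroxylase, had 0.26 ± 0.08, 0.24 ± 0.08 and 0.16 ± 0.07. Vegfa (0.07 ± 0.07), the angiogenic growth factor, and Higd1a (0.12 ± 0.14), the nuclear gene of a mitochondrial protein, lay near 0. So did Car9 (0.05 ± 0.16), a carbonic anhydrase of the cell surface, and P4ha2 had -0.13 ± 0.09.

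Most members lay in 1 direction without being called. In 25 of 36 members both overexpression libraries were above both WT libraries, and in 2, Hk2 and P4ha2, both were below. Over all genes tested those shares were 26.3% and 21.7%. The summed level of the glycolytic enzymes was 2170 and 2127 CPM per kilobase in WT and 2341 and 2404 with overexpression, that of the other HIF targets 612 and 586 against 729 and 716. In both sums the groups did not overlap. Fewer cells of a type and less RNA per cell cannot be told apart in such bulk libraries.

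The regulators of the pathway were not called with overexpression, with 0 of 15 HIF subunits and regulators past the edgeR threshold. Hif1a was at 186 and 191 CPM in WT and 179 and 206 CPM with overexpression, and Epas1, another HIF alpha subunit, at 93.8 and 93.8 against 97.9 and 92.3 CPM. HIF alpha subunits are controlled mainly through protein stability, which RNA does not measure. Of 32 further HIF targets 1 rose, Zfp395 (79.9 and 81.9 against 103 and 105 CPM), and 0 fell, beside 2.32% and 1.84% of all genes. The median log2 fold change of these 32 was 0.14, beside 0.29 for the 16 other HIF targets and 0.14 for the enzymes. In neighbouring metabolism, 0 of 26 genes of mitochondrial pyruvate use and the TCA cycle, 0 of 21 tested paralogs of the enzymes and transporters and 0 of 4 tested gluconeogenesis genes were called. Of 8 pentose phosphate genes 1 rose, H6pd, at 172 and 187 CPM in WT and 234 and 218 CPM with overexpression.

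Markers of other cell types moved between the same libraries. All 13 tested of 14 acinar markers fell, from a sum of 20905 and 21391 CPM in WT to 1542 and 1693 CPM with overexpression. Endothelial markers fell in 4 of 10 cases (sums of 539 and 522 against 393 and 406 CPM). Neutrophil markers rose in 7 of 10 tested (57.5 and 56.3 against 176 and 187 CPM), macrophage markers in 6 of 12 (165 and 157 against 331 and 346 CPM), B and plasma cell markers in 2 of 4 tested (7.79 and 6.80 against 86.2 and 85.4 CPM) and fibroblast markers in 2 of 10, Col1a2 and Pdgfrb (5249 and 5831 against 6259 and 6226 CPM). Of red blood cell markers 1 of 5 tested rose, Hbb-bs (sums of 29.2 and 38.9 against 64.5 and 65.3 CPM). T and NK cell markers were called in 0 of 3 tested, epithelial markers in 0 of 6 and mitochondrially encoded genes in 0 of 13. Among the defining markers, Mmp8, Ms4a1, Tnfrsf17 and Cd3e were at 0 in both WT libraries, and Elane was in both overexpression libraries. Mmp8, which was called, entered the test only through the overexpression libraries. Other called markers that were low in WT may have done so too, as the tested neutrophil markers had a median log2 fold change of 5.53. The part of these cell types in the members' differences was not tested.

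**Figure D2:**
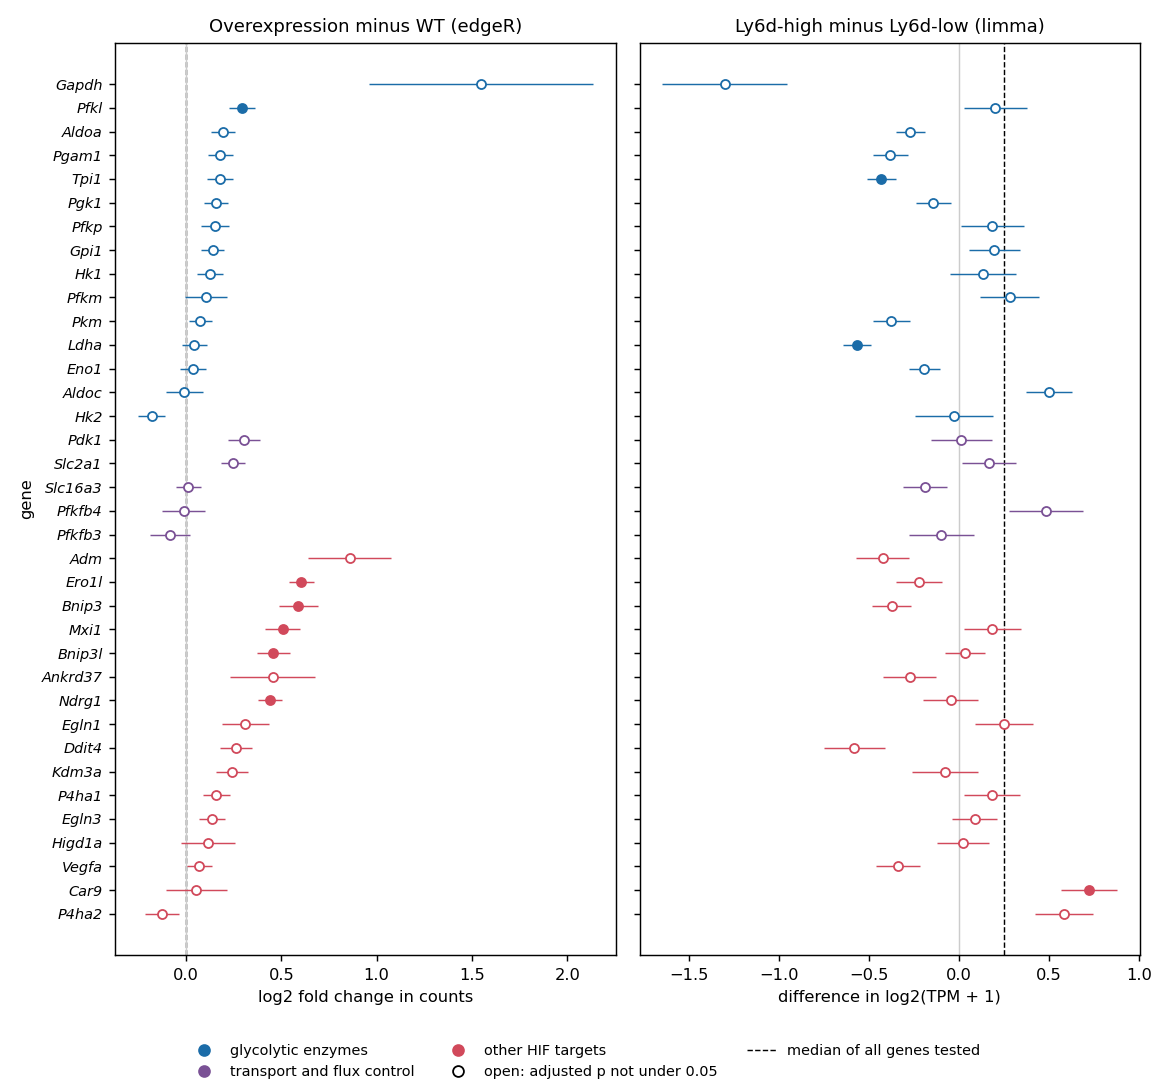
Difference of each of the 36 genes, overexpression minus WT as a log2 fold change in counts (left) and Ly6d-high minus Ly6d-low in log2(TPM + 1) (right), with bars of 1 SE from 2 libraries a group and colours for the roles. Filled points had an adjusted p under 0.05, and dashed lines mark the medians of all genes tested (-0.0012 and 0.25). On the left 5 of the 6 filled points are other HIF targets; on the right Ldha and Tpi1 lie below 0 and Car9 above.

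Between Ly6d-high and Ly6d-low cells, the glycolytic enzyme genes Ldha and Tpi1 were lower in Ly6d-high cells. By limma on log2(TPM + 1) with an adjusted p under 0.05, Ldha and Tpi1 fell and Car9 rose among the 36 members. Over all 14625 genes tested, 8.64% rose and 1.17% fell, and the median of all genes was 0.25 on that scale, so a gene with no difference in TPM lies below most genes. Relative to that median, the median of the enzymes was -0.39 (as measured -0.14), that of the other HIF targets -0.26 (-0.01) and that of the transport and flux genes -0.23 (0.01). Below the median of all genes lay 13 of 15 enzymes, 13 of 16 other HIF targets and 4 of 5 transport and flux genes, and below 0 lay 9, 8 and 2 of them.

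Ldha makes the lactate dehydrogenase subunit that favours lactate production and lies on chr7:46841475-46855627 (plus strand). It was the most abundant member, at 3830 and 3814 TPM in Ly6d-low and 2590 and 2564 TPM in Ly6d-high cells. The replicates of each group nearly coincided and the groups lay far apart. In log2(TPM + 1), Ldha differed by -0.57 ± 0.08 (SE, n = 2 and 2; adjusted p = 0.00466, limma), or by -0.81 relative to all genes.

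Tpi1, triosephosphate isomerase, lies on chr6:124810586-124814296 (minus strand) and stood at 2963 and 2954 TPM in Ly6d-low and 2255 and 2130 TPM in Ly6d-high cells. Its groups did not overlap, and the difference was -0.43 ± 0.08 (adjusted p = 0.0193, limma). The related entry Tpi-rs11 held 208 and 234 TPM in Ly6d-low and 185 and 165 TPM in Ly6d-high cells, so reads may be split between the entries.

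Car9, whose enzyme is widely used as a hypoxia marker, went the other way. It lies on chr4:43506966-43513729 (plus strand) and stood at 63.6 and 67.0 TPM in Ly6d-low and 96.1 and 122 TPM in Ly6d-high cells. The Ly6d-high libraries were both higher and further apart than the Ly6d-low ones, and the difference was 0.72 ± 0.15 (adjusted p = 0.0317, limma), or 0.48 relative to all genes. All 3 calls were lost when either Ly6d-low library was left out, with adjusted p of 0.0798 and 0.0697 for Ldha, 0.353 and 0.288 for Tpi1 and 0.309 and 0.173 for Car9. The Ly6d-high arm was then compared with 1 library, which is assumed to vary like the others.

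**Figure D3:**
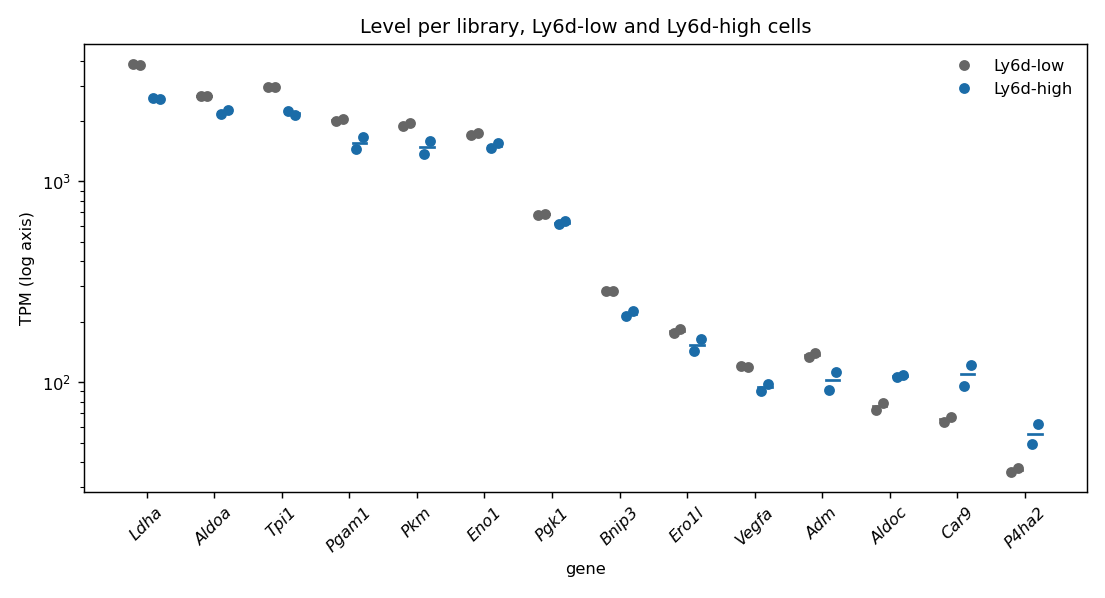
Level of 14 hypoxia and glycolysis genes in each library of Ly6d-low (grey) and Ly6d-high (blue) cells, in TPM on a log axis. Points are single libraries and short lines are means of 2 libraries. Ldha fell from 3830 and 3814 TPM to 2590 and 2564 TPM, and Car9 rose from 63.6 and 67.0 TPM to 96.1 and 122 TPM.

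The other abundant enzymes had lower values in Ly6d-high cells but did not pass on TPM without other scaling. Aldoa was at 2672 and 2672 TPM in Ly6d-low and 2167 and 2257 TPM in Ly6d-high cells, with a difference of -0.27 ± 0.08 (adjusted p = 0.0782, limma). Pgam1, phosphoglycerate mutase, was at 2011 and 2046 against 1449 and 1671 TPM (-0.38 ± 0.10, adjusted p = 0.0568, limma), and Pkm at 1884 and 1950 against 1369 and 1593 TPM (-0.38 ± 0.10, adjusted p = 0.0638, limma). Eno1 (1699 and 1737 against 1462 and 1545 TPM) and Pgk1 (684 and 690 against 612 and 632 TPM) had differences of -0.19 ± 0.09 and -0.14 ± 0.10. In none of these did the groups overlap. Gapdh was listed at only 7.73 and 17.2 TPM in Ly6d-low and 4.92 and 3.42 TPM in Ly6d-high cells.

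Most enzymes with lower levels lay above 0 in TPM, but 13 of 15 enzymes lay below the median of all genes, and below 0 lay 13 with TMM factors and 14 on recovered reads. Aldoc, the aldolase best known from brain, was at 72.9 and 78.8 TPM in Ly6d-low and 106 and 109 TPM in Ly6d-high cells (0.50 ± 0.13, adjusted p = 0.0535, limma). Its share of the summed aldolase level was 2.62% and 2.82% in Ly6d-low and 4.64% and 4.56% in Ly6d-high cells, while Aldoa gave 95.9% and 95.7% against 94.6% and 94.6%. Pfkm (0.28), Pfkl (0.20), Gpi1 (0.20), Pfkp (0.18) and Hk1 (0.13) had small positive differences in TPM, and Hk2 had -0.03; their SEs ran from 0.14 to 0.22, and none passed.

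The count of called genes differed between ways of scaling and testing. The TPM steps gave whole reads in 100% of 85643 values above 0, within 0.1 of a read. On these reads, edgeR called 14 of 36 members lower and 1 higher, Car9, beside 3.87% lower and 8.01% higher of 15275 genes. The 14 were Ldha, Tpi1, Aldoa, Pgam1, Pkm, Eno1, Pgk1 and Gapdh among the enzymes, Slc16a3 among the transport and flux genes, and Adm, Bnip3, Ddit4, Ero1l and Vegfa among the other HIF targets. For Ldha the log2 fold change was then -0.86 ± 0.11 (adjusted p = 0.00319), for Pkm -0.67 ± 0.08 (adjusted p = 0.00328) and for Pgam1 -0.68 ± 0.08 (adjusted p = 0.00345). With TMM factors applied to TPM, limma called 9 members lower and 0 higher, beside 1.68% lower and 4.8% higher of all genes, and the median of all genes was 0.01. The 9 were Adm, Bnip3, Ddit4, Ero1l, Ldha, Pgam1, Pkm, Slc16a3 and Vegfa. Under that scaling 31 of the 36 members lay below 0, against 19 as measured in TPM, so the direction of many uncalled members turns with the scaling. DESeq2 on recovered reads called the same 14 as edgeR lower and 0 higher, beside 3.55% and 5.5% of all genes. The counts on TPM also moved with single libraries: 14 members rose and 11 fell without Ly6d-high replicate 1, beside 41.1% and 8.15% of all genes. They were 3 and 10 without Ly6d-high replicate 2 (9.12% and 2.72%), 0 and 1 without Ly6d-low replicate 1 (5.8% and 0.683%), and 0 and 0 without Ly6d-low replicate 2 (6.38% and 0.851%). Without the filter on low values 0 members were called, beside 1.85% of all genes that rose and 0.175% that fell.

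Among the most abundant genes more fell than rose in Ly6d-high cells. Of 116 genes at a mean of 1000 TPM or more, 31.9% fell and 10.3% rose in the limma test, and their median difference was -0.29. The 6 members at that level, Aldoa, Eno1, Ldha, Pgam1, Pkm and Tpi1, all lay below 0 with a median of -0.38. On recovered reads 61.2% of those genes fell, with a median of -0.56 for all 116 and -0.67 for the 6 members. From 500 to 1000 TPM, 5.84% of 154 genes fell and 13.6% rose, with a median of -0.03, and Pgk1 was the member there. From 100 to 500 TPM, 2.3% of 1346 genes fell and 5.94% rose, and the 11 members there had a median of -0.05 beside 0.08 for all. At lower levels the members did not keep to 1 side of the genes of like level. Their medians were 0.37 beside 0.18 for all from 50 to 100 TPM (4 members) and 0.18 beside 0.25 from 20 to 50 TPM (7 members). Below 20 TPM, 7 members had a median of -0.08 beside 0.28.

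**Figure D4:**
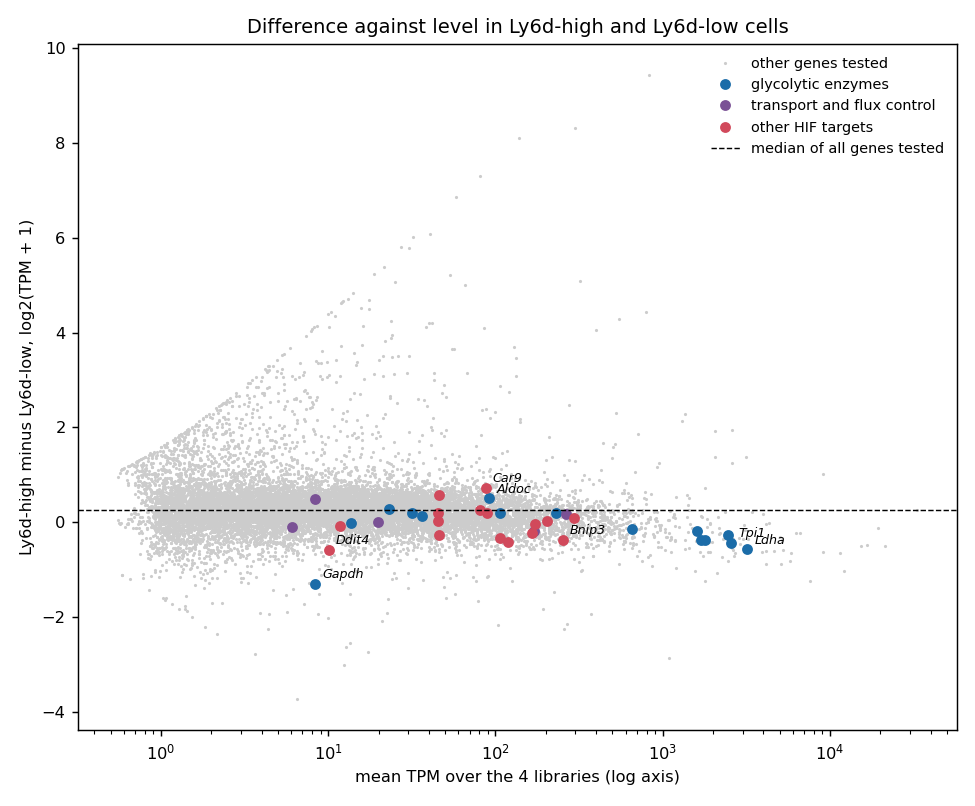
Difference between Ly6d-high and Ly6d-low cells in log2(TPM + 1) against the mean TPM of the 4 libraries on a log axis, for each of 14625 genes tested (grey) and the 36 members coloured by role. The dashed line is the median of all genes (0.25). The 6 members at 1000 TPM or more lie below 0, where the median of all genes at that level was -0.29.

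Of the other HIF targets, 8 lay above and 8 below 0 in TPM, 3 above and 13 below the median of all genes, and 2 above and 14 below 0 both with TMM factors and on recovered reads. Lower values with groups that did not overlap were seen for Bnip3 (286 and 283 against 213 and 226 TPM), Vegfa (120 and 120 against 90.5 and 98.2 TPM), Adm (134 and 139 against 91.0 and 113 TPM), Ero1l (175 and 183 against 143 and 165 TPM), Ddit4 (13.2 and 11.4 against 8.03 and 7.71 TPM) and Ankrd37 (53.4 and 46.9 against 43.3 and 39.3 TPM). Their differences ran from -0.58 to -0.23 and none passed the limma test on TPM, while all but Ankrd37 were called lower with TMM factors and on recovered reads. P4ha2 was at 35.8 and 37.1 TPM in Ly6d-low and 49.1 and 61.7 TPM in Ly6d-high cells (0.58 ± 0.16, adjusted p = 0.0655, limma). Its sister P4ha1 had 0.18 ± 0.16, and the share of P4ha2 in the collagen hydroxylase family was 27.6% and 28.7% against 34.3% and 33.5%. Bnip3l (0.03), Ndrg1 (-0.05), Higd1a (0.02), Kdm3a (-0.08), Egln3 (0.09), Mxi1 (0.18) and Egln1 (0.25) had SEs from 0.11 to 0.18 and did not pass.

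Transport and flux genes were not called on TPM without other scaling, while Slc16a3 was called lower with TMM factors (adjusted p = 0.0487, limma) and on recovered reads. Slc2a1 was at 242 and 251 TPM in Ly6d-low and 242 and 317 TPM in Ly6d-high cells, and its groups overlapped. Slc16a3 was at 179 and 183 against 150 and 168 TPM (-0.19 ± 0.12) and its family member Slc16a1 at 182 and 192 against 183 and 243 TPM. The share of Slc16a3 in the monocarboxylate transporters was thus 49.2% and 48.5% in Ly6d-low and 44.5% and 40.5% in Ly6d-high cells. Pfkfb4 had 0.48 ± 0.20, Pfkfb3 -0.10 ± 0.18 and Pdk1 0.01 ± 0.17.

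Summed, the 15 enzymes made up 16218 and 16386 TPM in Ly6d-low and 12427 and 13037 TPM in Ly6d-high cells, without overlap. The other HIF targets summed to 1783 and 1813 against 1620 and 1877 TPM, with overlap. In 15 members both Ly6d-high libraries were below both Ly6d-low ones and in 6 both were above, beside 10.4% and 54.4% of all genes.

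Some minor paralogs outside the members moved more. Ldhb, the lactate dehydrogenase subunit that favours pyruvate, rose from 1.90 and 1.42 TPM in Ly6d-low to 14.5 and 14.1 TPM in Ly6d-high cells (2.53 ± 0.19, adjusted p = 0.00032, limma), yet Ldha still made up 99.4% and 99.5% of the family in Ly6d-high cells. The hexokinase-related Hkdc1 rose from 2.97 and 3.09 to 7.53 and 10.8 TPM. Of 15 tested paralogs these 2 rose and 1 fell. Of 31 tested further HIF targets 2 rose and 1 fell. Those that rose were Rora (0.266 and 0.290 against 2.73 and 3.91 TPM) and Nos2 (1.58 and 1.16 against 3.70 and 5.11 TPM). The lipid droplet gene Hilpda fell (416 and 406 against 309 and 264 TPM). Relative to all genes, the median of the 31 was -0.06, beside -0.26 for the 16 other HIF targets. Rora lay below 1 TPM in both Ly6d-low libraries, so it entered the test only through the Ly6d-high libraries. Of 26 genes of mitochondrial pyruvate use and the TCA cycle 2 rose, Pcx, pyruvate carboxylase (4.57 and 6.80 against 10.9 and 15.8 TPM), and Sdha, a subunit of succinate dehydrogenase (99.6 and 106 against 140 and 162 TPM). With TMM factors 0 of the 26 were called (adjusted p = 0.0881 for Pcx and 0.123 for Sdha, limma). On recovered reads edgeR called Pcx higher, Idh3b and Sdhd lower, and Sdha not (adjusted p = 0.108). HIF subunits and regulators were called in 0 of 13 tested, pentose phosphate genes in 0 of 7 and gluconeogenesis genes in 0 of 3. Beside the counts of the limma test on TPM, 8.64% of all genes tested rose and 1.17% fell, and the shares under other scaling are given above. Hif1a was at 57.2 and 60.5 TPM in Ly6d-low and 62.4 and 81.3 TPM in Ly6d-high cells.

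Markers of other cells, and of the sorted cells themselves, differed between these libraries too. Of 13 tested acinar markers 10 rose (sums of 5911 and 5884 TPM in Ly6d-low and 14531 and 12799 in Ly6d-high cells), of 9 tested macrophage markers 5 (275 and 279 against 848 and 895 TPM), of 4 B and plasma cell markers 3 (3.03 and 1.40 against 91.1 and 77.5 TPM) and of 3 neutrophil markers 2 (67.9 and 70.3 against 173 and 208 TPM). Of 6 epithelial markers 4 keratins fell (Krt7, Krt8, Krt18 and Krt19; sums over the 6 of 55454 and 56566 against 39489 and 38558 TPM), as did 8 of 13 mitochondrially encoded genes (24847 and 25299 against 14753 and 13715 TPM). Fibroblast, endothelial, red blood cell and T and NK cell markers were called in 0 of 9, 7, 4 and 2 tested. Camp, Elane, Marco, Mzb1, Tnfrsf17, Cd3d, Cd4 and Gzma were at 0 in both Ly6d-low libraries, and Camp, Retnlg, Ms4a1, Tnfrsf17, Cd8a and Gzma in both Ly6d-high libraries. Mzb1, which was called, entered the test only through the Ly6d-high libraries. The same may hold for other called markers that were low in Ly6d-low cells, such as Jchain, Pou2af1 and the acinar marker Ptf1a. The part of these marker differences in those of the members was not tested.

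Set side by side, the comparisons gave the members different values, and they share no library. None of the 6 genes that rose with overexpression was called in the limma test of Ly6d-high cells on TPM. With TMM factors (adjusted p = 0.0320 for Bnip3 and 0.0396 for Ero1l, limma) and on recovered reads, Bnip3 and Ero1l were called lower there. On TPM, Ero1l had 0.61 against -0.23, Bnip3 0.59 against -0.38, Mxi1 0.51 against 0.18, Bnip3l 0.46 against 0.03, Ndrg1 0.44 against -0.05 and Pfkl 0.29 against 0.20. The genes called in Ly6d-high cells had small differences with overexpression: Ldha 0.04, Tpi1 0.18 and Car9 0.05. A positive value in both comparisons was found for 14 members, a negative one in both for 2, positive with overexpression and negative in Ly6d-high cells for 17, and the reverse for 3. These counts hold for TPM as deposited: with TMM factors they were 2, 2, 29 and 3, and on recovered reads by edgeR 1, 2, 30 and 3. The tables are on different scales and were normalised separately, and the difference between the effects was not tested.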

How the data were processed

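The submitters' processing notes name DESeq2, HISAT2, fastp and featureCounts with no version or order, and mm9 as the genome, but 98.3% of the 54409 genes found in the GENCODE annotation of GRCm38 have its coordinates in the tables, so coordinates are named GRCm38. No source used here says whether counting used strand. For WT and overexpression the authors deposited raw counts per gene. For Ly6d-high and Ly6d-low cells they deposited TPM, with the length used for each gene in a column of its own. Columns were assigned by name, and 2 columns of per-sample counts that match no label were not used.

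The count comparison used the quasi-likelihood test of edgeR 4.0.16 (R 4.3.3; filterByExpr, TMM), with the SE taken as the log2 fold change over the square root of F. For the TPM comparison, genes reaching 1 TPM in 2 or more libraries were tested by limma-trend (limma 3.58.1) after adding a pseudocount of 1 and taking log2, which understates changes of low genes. Differences passed with a Benjamini-Hochberg adjusted p under 0.05 over all genes tested. Since the TPM gave whole reads, edgeR and DESeq2 1.42.0 were also run on these. Other alternatives were DESeq2 on the counts, other size factors, no filter, a pseudocount of 0.1, TMM factors on TPM, a replicate block and leaving out each library. The 36 members and all other lists were chosen with earlier results of these data known. All members are accounted for, those that passed are given per library, and of each other list the counts called and up to 4 called genes are given. Levels per length use CPM per kilobase for counts and TPM otherwise, and errors are SE or the 2 library values. Values of 3 genes outside the members are not reported here.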

Additional observations from a re-analysis of the deposited data

How the results depend on the processing

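With overexpression, Bnip3, Bnip3l, Ndrg1, Ero1l and Mxi1 kept their calls in 7 of 7 alternatives and Pfkl in 5 of 7. The number of members that rose, 6, became 12 without the filter on low counts (2.42% of all genes), and leaving out single libraries gave 6 to 9; the number that fell was 0 in each. The median of the glycolytic enzymes relative to all genes, 0.14, became 0.20 with DESeq2 and 0.20 without the filter. Gapdh reversed, running from -0.45 without overexpression replicate 2 to 2.35 without overexpression replicate 1. In Ly6d-high against Ly6d-low cells, the 1 member that rose and 2 that fell became 0 and 0 without the filter, 0 and 9 with TMM factors on TPM, 1 and 14 with edgeR and 0 and 14 with DESeq2 on recovered reads. Leaving out single libraries gave 0 to 14 that rose and 0 to 11 that fell, both highest without Ly6d-high replicate 1. Relative to all genes the median of the enzymes, -0.39, became -0.29 without the filter and -0.49 with DESeq2 on recovered reads, while without the filter that of the other HIF targets moved from -0.26 to -0.16 and that of the transport and flux genes from -0.23 to -0.14. With the replicate number as a block, 3 members rose and 9 fell, beside 24.5% and 4.09% of all genes, but same-numbered libraries had deviations correlated by only 0.068 and share only a number. No paired analysis was possible because the overexpression columns fit no single sample by name, for overexpression against WT. The cause of these changes was not tested. Having 2 libraries a group limits the precision of every value.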
